A study of Rangifer tarandus with 8 samples.

Results

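Small nucleolar RNA genes were taken as all gene records that the deposited cattle annotation types as snoRNA or scaRNA. There were 803 of them among 27607 gene records, which is 2.91% of all genes. Of these, 770 were snoRNA and 33 were scaRNA records. A gene name was given to 223 (27.8%), and the other 580 carried an identifier alone. The annotation belongs to the genome build ARS-UCD1.2, and all coordinates are cattle coordinates counted from base 1.

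Single-cell ATAC-seq, an assay of open chromatin, had been run on skin of adult reindeer (Rangifer tarandus), with reads aligned to a cattle reference. Its 8 libraries came from antler velvet and back skin, unwounded at day 0 or 7 days after 12 mm full-thickness wounds, and from velvet grafted to the back 6 weeks, 3 months or 6 months earlier. The 6-week graft group had 2 libraries, from separate animals, and each of the other 6 groups had 1. No accessibility value was analysed here, and nothing below compares tissues or times. The annotation lists each gene once for the whole series, so the counts have no replicate error and no p-value was computed.

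Small nucleolar RNAs mostly guide chemical modification of other RNAs. Many box C/D RNAs, the family named SNORD, direct ribose methylation of ribosomal RNA. Many box H/ACA RNAs, the family named SNORA, direct its pseudouridylation. The scaRNAs of Cajal bodies act on spliceosomal RNAs. Not every member of a family has such a role. Most mammalian members have no promoter of their own: they are cut from introns of a host gene after splicing, so they have to lie on the host's strand. U3 and U8, box C/D RNAs that take part in cleavage of the ribosomal RNA precursor, are exceptions transcribed from their own promoters.

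Each record was placed in 1 class. Same-strand introns of protein coding genes held 336 records (41.8%). Same-strand introns of long noncoding RNA (lncRNA) genes held 40 (4.98%). A further 90 (11.2%) overlapped a gene on the opposite strand, and 315 (39.2%) were intergenic. The remaining 22 (2.74%) lay on the strand of a gene but overlapped one of its exons.

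Intronic position differed between the named families. SNORD and U names covered 110 records, of which 44 (40%) were in coding introns, 17 (15.5%) in lncRNA introns and 35 (31.8%) intergenic. Of those 17 records in lncRNA introns, 11 were SNORD116 copies. SNORA names covered 111 records, of which 30 (27.0%) were in coding introns, 2 in lncRNA introns and 59 (53.2%) intergenic. A single name, SNORA70, made up 63 of the 111. Without it, 15 of 48 SNORA records (31.25%) were in coding introns and 25 (52.1%) were intergenic. Of the 33 scaRNA records, none of which had a name, 18 (54.5%) were in coding introns and 12 were intergenic. Of the 547 unnamed snoRNA records, 242 (44.2%) were in coding introns, a larger share than in either named family, and 209 (38.2%) were intergenic.

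**Figure D1:**
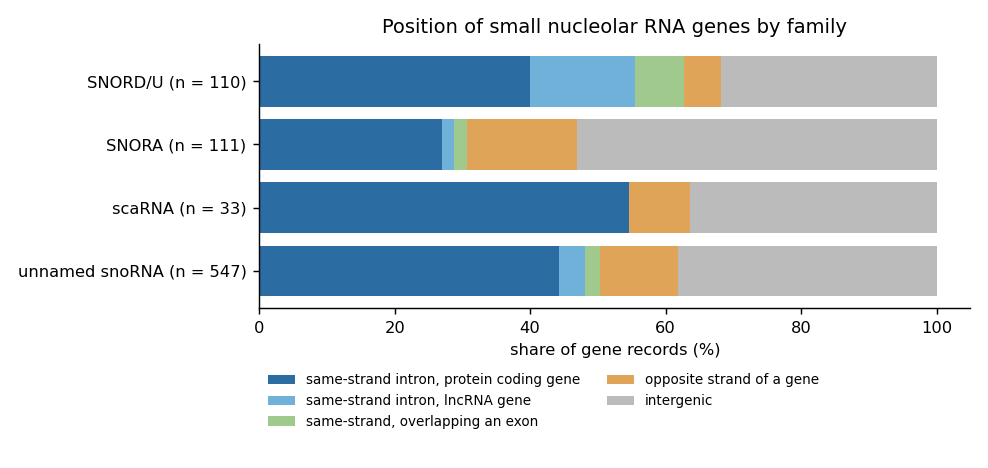
Share of gene records (x axis, %) in each position class for the 4 families (y axis, with the number of records). The coding intron share was 40% for SNORD and U names, 27.0% for SNORA names, 54.5% for scaRNA and 44.2% for unnamed snoRNA records; 2 records with other names are not drawn.

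Lengths differed by family. The median over all members was 126 bases (quartiles 83 and 134, range 41 to 433). SNORD and U records had a median of 87.5 bases and SNORA records one of 133 bases, with quartiles of 131 and 135 bases. For description, records were called short up to 100 bases, middle above that and up to 160, and long beyond, limits set after the lengths had been seen. Of the SNORD and U records 74 were short, 19 middle and 17 long. Of the SNORA records 7 were short, 96 middle and 8 long. Unnamed snoRNA records showed both peaks, with 212 short and 317 middle. A length does not assign an unnamed record to a family, and the sequences needed to find its boxes were not analysed here.

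The long records were few. All 17 long records of the SNORD and U family were named U3, whose median length was 214 bases. The longest of these, at 226 bases, lay in an intron of NRIP3. The shortest record of the family, 50 bases, was a SNORD115 on chromosome 21 from 2186760 to 2186809. In the SNORA family 5 records shared the greatest length of 204 bases, all 4 SNORA73 records, of which 1 lay on chromosome 2 from 124915536 to 124915739, and a SNORA74. The shortest was a SNORA70 of 86 bases in an intron of MYO1F. The scaRNA records ran from 83 bases to 433 bases, the latter intergenic on chromosome 3 from 34281165 to 34281597. Of the 33 scaRNA records, 8 were long, 20 middle and 5 short. The extremes of the unnamed snoRNA records both overlapped host exons: 41 bases in TRPM2 and 322 bases in NCAPD2.

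**Figure D2:**
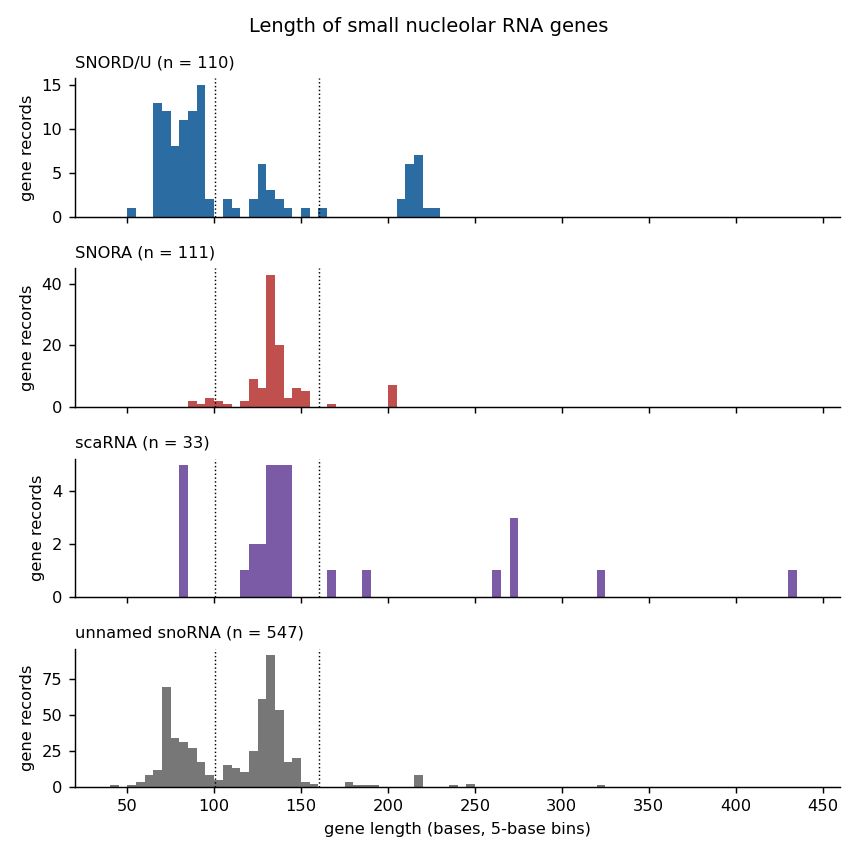
Gene length in bases (x axis, 5-base bins) against number of records (y axis) in 4 families, with dotted lines after 100 and 160 bases. SNORD and U records peak at short lengths with a separate group of U3 records above 200 bases, SNORA records peak near their median of 133 bases, and unnamed snoRNA records show both the short and the middle peak.

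The 336 records in coding introns were spread over 237 host genes, or 1.24% of the 19123 coding genes with an intron. A host held 1 record in 179 cases (75.5%), 2 in 37, 3 in 7 and 4 or more in 14. Ribosomal protein genes, by the symbol pattern RPL or RPS followed by a digit or P, made up 26 of the 237 hosts (10.97%). The same pattern matched 94 of 21861 protein coding genes (0.430%), including 10 RPS6K kinase genes, none of which was a host. Without the kinases, 81 ribosomal protein genes had an intron, and 32.1% of those were hosts. Large subunit genes (RPL) supplied 18 hosts and small subunit genes (RPS) 8. RPSA, a small subunit protein gene that the pattern misses, held 2 SNORA62 records as well.

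Ribosomal protein hosts were short genes that often carried several members. They held 51 of the 336 records (15.2%). Of the 26, 13 (50%) held 2 or more records, against 45 of 211 other hosts (21.3%). Their median gene length was 3.64 kb, against 43.3 kb in the other hosts and 18.55 kb in all coding genes with an intron. By family, 19 of 44 SNORD and U records in coding introns (43.2%) had a ribosomal protein host, whereas 1 of 30 SNORA records (3.33%) did. That record was the SNORA70 of RPL10. With the 2 SNORA62 records of RPSA, which the pattern misses, the count was 3 of 30. Among short records the share was 28.2% (35 of 124), among middle records 8.65% (16 of 185), and none of the 27 long records had such a host.

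Among the ribosomal protein hosts with most members were RPL13A, RPL3, RPL4 and RPL7A, with 4 records each. RPL4 (ENSBTAG00000005211, chromosome 10, 13357473 to 13362297) carried SNORD18 in introns 2, 4 and 6 and SNORD16 in intron 3. Their distances to the next exon were 73, 85, 126 and 61 bases. RPL7A (ENSBTAG00000011559, chromosome 11, 104255845 to 104259161) carried SNORD24 in introns 1 and 2 and SNORD36 in introns 4 and 6, at 179, 76, 76 and 99 bases from the next exon. In both genes, each member thus had an intron to itself, and repeats of a name sat in separate introns of the same gene.

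RPL13A (ENSBTAG00000005296, chromosome 18, 55940456 to 55944163) had SNORD33 in introns 2 and 4, SNORD34 in intron 5 and an unnamed record in intron 6. These lay 258, 75, 68 and 119 bases before the next exon, in introns of 387, 199, 177 and 286 bases. RPL3 (ENSBTAG00000003228, chromosome 5, 110745805 to 110752075) had 4 unnamed records in introns 1, 3, 5 and 7. Their distances were 449, 0, 337 and 112 bases, and the record at 0, which abuts exon 4, was annotated with 56 bases. All members of these 4 genes were short.

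The other ribosomal protein hosts held fewer. RPS12 had 3 records, 7 genes had 2 and 13 had 1. RPL5, RPL30 and RPS2 each had a record overlapping an annotated exon: SNORA66, SNORA72 and an unnamed record of 131 bases. Each of these lay wholly in an exon of 1 transcript and inside an intron of another.

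Hosts outside the ribosomal proteins included the snoRNA machinery itself. NOP56 and NOP58 encode core proteins of the box C/D particle, and held 5 and 4 members. The NOP56 members (ENSBTAG00000018812, chromosome 13, 52519428 to 52524691) lay in introns 3, 5, 8, 9 and 10, at 151, 117, 218, 91 and 69 bases from the next exon. DKC1, the pseudouridine synthase gene of the box H/ACA particle, was also a host, as were NCL (nucleolin) and the ribosome assembly genes WDR43 and PPAN. Of a list of 20 nucleolar and snoRNA-particle genes 6 (30.0%) were hosts, with 18 records. GNL3, a nucleolar GTPase gene that was not on the list, held 4 short records in introns 6 to 9, at 576, 126, 84 and 59 bases from the next exon.

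A list of translation factors and associated genes, written with human host genes known, had the largest share of hosts among the lists used here. Of its 18 genes 10 (55.6%) were hosts, with 19 records. That share depends on which genes were listed, so the order of the lists is not a result about translation factors. EIF4A1 and EIF4A2 encode the RNA helicase of the cap-binding complex and held 4 members each. The EIF4A1 members (ENSBTAG00000000132, chromosome 19, 27305005 to 27311552) were all middle-length, with 135, 145, 141 and 144 bases. The last of them was SNORA67, in intron 9 of 10 and 69 bases before the next exon. EIF4A2 (ENSBTAG00000014724, chromosome 1, 80467443 to 80473754) mixed lengths of 141, 132, 177 and 69 bases. EEF1B2, EEF2, EIF3A, EIF4G1, EIF4G2, EIF5, TPT1 and RACK1 were the other hosts of this list.

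Of 12 chaperone genes 4 (33.3%) were hosts, with 9 records. HSPA8, the constitutive Hsp70 gene (ENSBTAG00000013162, chromosome 15, 33679009 to 33683436), held SNORD14 in introns 5, 6 and 8, at 72, 107 and 114 bases from the next exon. Of 15 RNA processing genes 6 (40%) were hosts, with 12 records, including CNOT1, the scaffold gene of the deadenylase complex. These lists were written with knowledge of human host genes, so their shares are not independent evidence. Over all hosts, 52 of 237 were on a list or ribosomal, and 185 were on neither.

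The host with most records was of another kind. TEX14, a gene of germ cell bridges (ENSBTAG00000010167, chromosome 19, 9512391 to 9662512), held 8 records at 6 places, all in its first intron of 50247 bases. Of these, 6 were named U3 and the other 2 overlapped a U3 record almost entirely. They lay 1123 to 39452 bases from the next exon. C18H19orf48 (ENSBTAG00000011079, chromosome 18, 56859896 to 56866365) held 4 short records, SNORD88B, SNORD88C and 2 unnamed, in each of its 4 introns. Although those introns ranged from 427 to 1861 bases, the distances to the next exon were 70, 86, 84 and 89 bases. An unnamed coding gene on chromosome 2 (ENSBTAG00000048228, 124850784 to 124854007) held 4 members in introns 2 to 5, with 135, 131, 126 and 74 bases.

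**Figure D3:**
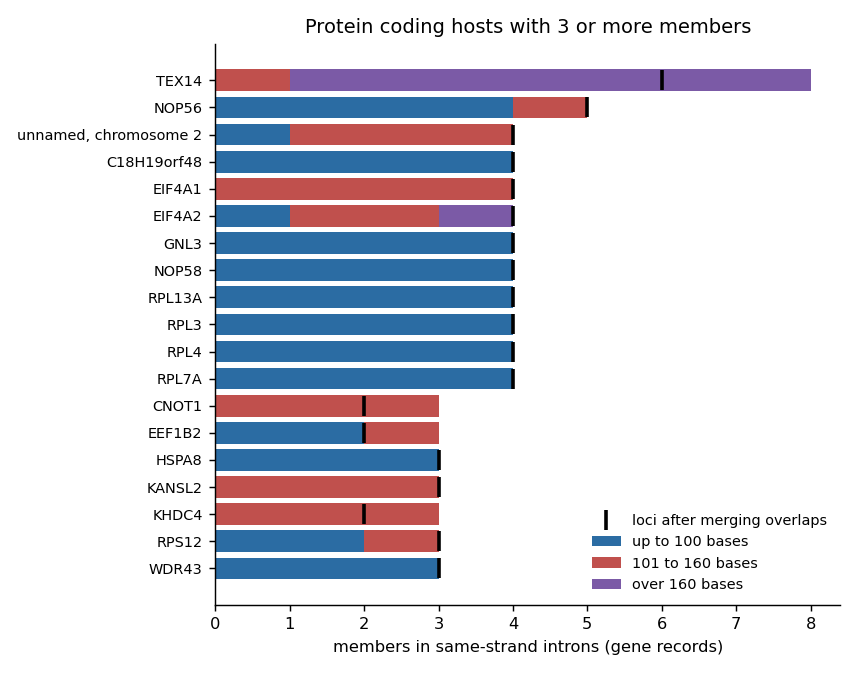
Number of member records (x axis) in 19 of the 21 protein coding hosts with 3 or more (y axis), coloured by length class; black ticks mark the number of separate loci once overlapping records are merged. TEX14 leads with 8 records at 6 loci, and the hosts RPL3, RPL4, RPL7A and RPL13A hold short records alone.

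A coding intron seldom held more than 1 member. The 336 records used 313 introns, of which 17 held 2 or more records and 9 still did once overlapping records were merged. Introns with a member were longer at the median than the other introns, compared within 1 transcript per host. In ribosomal protein hosts the medians were 490 bases (49 introns) against 323 bases (84 introns). In other hosts they were 2164 bases (260 introns) against 1154 bases (3087 introns). A longer intron has more room for a member, and a preference for long introns was not tested.

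Members in ribosomal protein genes lay nearer to the next exon than members elsewhere, in introns that were also shorter (median 476 against 2453 bases). Over all coding introns the median distance to the next exon was 718.5 bases (quartiles 122 and 3831). In ribosomal protein hosts the median was 112 bases, and in other hosts 1029 bases. Short records in ribosomal protein hosts had a median of 99 bases (n = 35) and short records elsewhere one of 576 bases (n = 89). Middle records in other hosts had a median of 1297 bases (n = 169), and the 16 in ribosomal protein hosts lay between 45 and 1700 bases.

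The distance from the previous exon gives a reference inside the same introns, since both distances are bounded by the same intron length. A window of 60 to 120 bases, chosen after the distances had been seen, held 22 of 35 short members in ribosomal protein hosts on the side of the next exon (62.9%) and 6 (17.1%) on the side of the previous exon. For short members in other hosts the shares were 28.1% (25 of 89) and 12.4% (11 of 89). For middle members over all hosts they were 15.1% (28 of 185) and 5.41% (10 of 185). Within this window, each of these 3 sets had more members on the side of the next exon. The lower edge of the window bears on that comparison. For the 35 short members in ribosomal protein hosts, the lower quartile was 76 bases to the next exon but 61 bases from the previous one. Members closer than 60 bases to the previous exon were left out of its count, so the shares depend on the chosen edge. Over whole introns the sides compared otherwise: 36 of 89 short members in other hosts (40.4%) and 84 of 185 middle members (45.4%) were closer to the next exon than to the previous one, against 22 of 35 short members in ribosomal protein hosts (62.9%). For short members in other hosts the median distance was 576 bases to the next exon and 412 bases from the previous one.

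MicroRNA and small nuclear RNA (snRNA) genes were seldom in the window on either side. In it lay 9 of 376 microRNA genes in coding introns before the next exon (2.39%) and 15 after the previous exon (3.99%). For snRNA genes the counts were 5 (2.50%) and 2 (1.00%) of 200. Their introns were longer, with medians of 6342.5 and 14823.5 bases against 1743.5 bases for snoRNA and scaRNA records. Introns of like length were not compared, so a part of intron length in the lower counts was not tested.

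The nearest and farthest members of each family spanned several orders of size. SNORD16 in RPL4, at 61 bases, was nearest the next exon of the SNORD and U family, and a SNORD116 copy in NYAP2 on chromosome 2, at 76576 bases, was farthest. Among SNORA records the SNORA70 of RPL10 was nearest, at 45 bases, and a SNORA72 in CTNNA2 was farthest, at 406633 bases. Among scaRNA records the nearest lay in HAUS6, 81 bases from the next exon, and the farthest in COP1, at 24984 bases. Among unnamed snoRNA records these were the RPL3 record at 0 bases and a record in SMYD3 at 133047 bases.

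**Figure D4:**
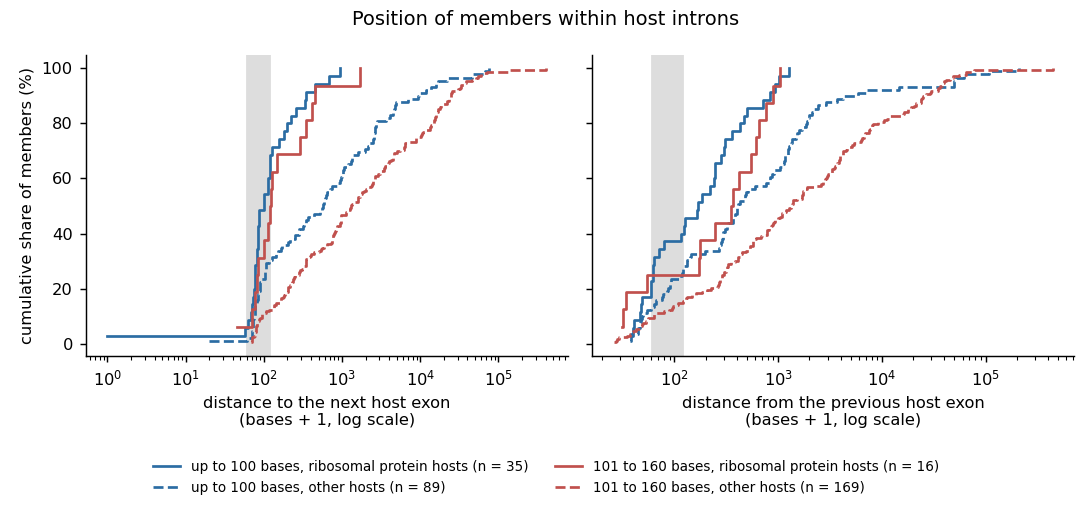
Cumulative share of members (y axis, %) by distance in bases plus 1 on a log scale (x axis) to the next host exon (left) and from the previous host exon (right), for short and middle-length members in ribosomal protein hosts (solid) and other hosts (dashed). The grey band marks 60 to 120 bases; the solid blue line, short members in ribosomal protein hosts, rises through it by 62.9% of members on the left and by 17.1% on the right. The lower quartile of that line on the right is 61 bases, close to the lower edge of the band.

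An intronic member can be released with its host's transcript only from the host's strand. Within coding introns, 336 records lay on the host's strand and 79 on the other, which puts 81.0% on the host's strand. The share was 91.7% for SNORD and U names (44 and 4), 90.0% for scaRNA (18 and 2) and 66.7% for SNORA names (30 and 15). Leaving out SNORA70 gave 88.2% for SNORA names (15 and 2), while SNORA70 itself stood at 53.6% (15 and 13). Without the ribosomal protein hosts the share over all members was 78.3%. For comparison it was 81.6% for microRNA genes (376 and 85) and 45.9% for snRNA genes (200 and 236).

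SNORA70 was the most repeated name, with 63 records on 26 chromosomes. Of its copies 34 were intergenic, 15 in coding introns and 14 opposite a gene. The 15 coding copies sat in 15 different hosts. The RPL10 copy lay 45 bases before the next exon, and the next nearest copy lay at 590 bases. U3 followed with 19 records, of which 10 were in coding introns of 5 hosts, 7 intergenic and 2 opposite a gene.

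The other most repeated names split by position. SNORD116 had 15 records, 11 of them in lncRNA introns. SNORA72 had 12, with 8 intergenic, and SNORA71 had 9, with 6 intergenic. SNORA62 had 9, of which 5 were in coding introns. SNORD22 also had 9, with none in a coding intron. SNORD14 had 7, with 5 in coding introns, SNORD115 had 6, all intergenic, and SNORD33 had 5, with 2 in coding introns.

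Names given to a single record were more often intronic. The annotation used 47 names, of which 19 belonged to 1 record each. Of those 19 records 16 (84.2%) were in same-strand introns of coding or lncRNA genes and 1 was intergenic. Of the 204 records that shared a name, 79 (38.7%) were in such introns and 93 (45.6%) were intergenic. How alike the sequences of records with a shared name are was not analysed here.

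Of all 1480 lncRNA genes, with or without an intron, 13 (0.878%) were hosts. The 1.24% given above for coding genes counts only those with an intron, so the 2 shares are not on a like basis. The 13 lncRNA hosts held more members each: 3.08 records on average, against 1.42 per coding host. None had a symbol, and none of 11 well-known noncoding host names (such as GAS5, SNHG1 and ZFAS1) appeared in the annotation. Of the 40 records in lncRNA introns 34 were short, with a median length of 79 bases over the class. By place, 11 of the 40 lay between SNRPN and UBE3A and 9 between RTL1 and DIO3, so these 2 regions of chromosome 21 weigh on the mean per host. The host ENSBTAG00000048781 counted 4 records at 2 loci. A further 12 records overlapped lncRNA exons.

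Counting exon overlaps, the richest lncRNA host was ENSBTAG00000054053 (chromosome 29, 41155211 to 41158366), between WDR74 and SLC3A2. It carried SNORD25, SNORD26, SNORD27, SNORD29 and SNORD31 in introns, at 85, 113, 76, 66 and 172 bases from the next exon, and SNORD28, SNORD30 and 2 SNORD22 records over exons. In human, SNORD25 to SNORD31 are hosted by SNHG1. A second host, ENSBTAG00000050891 (chromosome 16, 55234390 to 55236405), lay 2.04 kb from ZBTB37 and carried SNORD79 and 4 unnamed records in introns and SNORD81 over an exon. In human those named RNAs belong to GAS5. Whether either cattle gene is the counterpart was not tested.

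Members also formed runs, here 4 or more on 1 strand with gaps of at most 5 kb. There were 19 runs, holding 130 records (16.2%), and 488 records had no neighbour within that gap. In 9 runs every record lay in coding introns. Intergenic records made up 49 of the 130, which left 266 intergenic records outside runs.

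Chromosome 21 held the most members of any chromosome, 80, or 10.0% of its 798 genes. Chromosomes 19, 2, 11 and 5 followed with 59, 45, 41 and 41. On chromosome 21, 41 members lay between RTL1 and DIO3, all on the plus strand within 99.3 kb (65795004 to 65894282). Of these 40 were short, with a median of 74 bases, and 36 formed the largest run, with a median gap of 1405 bases. None had a name. By class 29 were intergenic, 9 were in lncRNA introns and 3 overlapped lncRNA exons. In human and mouse this is an imprinted region whose noncoding RNAs, with tandem box C/D genes, are made from the maternal chromosome.

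A further 22 members lay between SNRPN and UBE3A, all on the plus strand, which is the strand of SNRPN, with first and last bases at 1964407 and 2199436. They were 14 SNORD116, 6 SNORD115 and 2 unnamed records, all short. The SNORD116 copies had a median of 92 bases over all 15 records of the name, and the SNORD115 copies had one of 80 bases. Of the 22, 11 were in lncRNA introns, 2 over lncRNA exons and 9 intergenic. This region is imprinted too, and in human and mouse the box C/D RNAs come from the paternal chromosome. The 2 regions together held 63 of the 80 members of chromosome 21.

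A run of 8 unnamed members on chromosome 29 lay between coding genes that were not their hosts. It began 0.277 kb after the annotated end of TAF1D, a polymerase I factor gene on the same strand that ends at 1086765, and ended 0.223 kb before CEP295, on the opposite strand. The members had 127, 131, 71, 137, 134, 74, 123 and 127 bases, in the order of the strand. In human the corresponding position in TAF1D holds several snoRNAs in introns. The class of these 8 records was set by the annotated end of TAF1D, and whether the cattle gene extends over them was not tested.

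**Figure D5:**
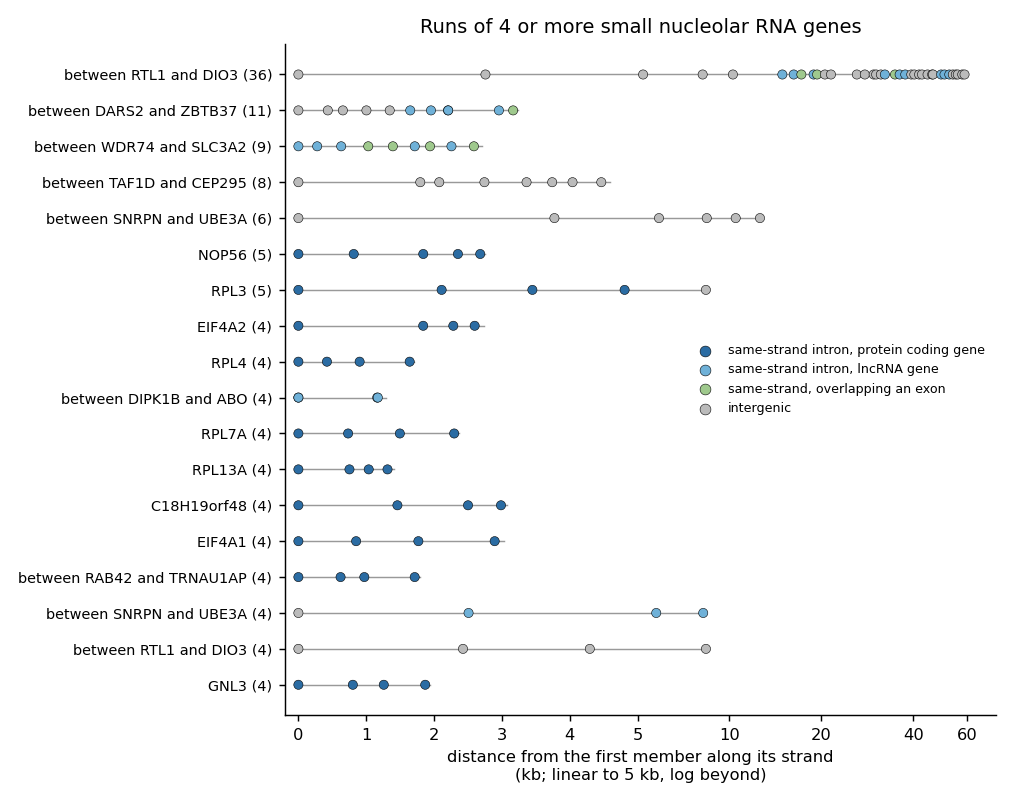
Of the 19 runs of 4 or more members, 18 (y axis, named by host or by flanking coding genes, with the number of records) are drawn by distance from the run's first member in kb (x axis, linear to 5 kb and logarithmic beyond), coloured by class. Runs in coding hosts such as RPL4, RPL7A and NOP56 are one colour, the run after TAF1D is intergenic throughout, and the largest run, between RTL1 and DIO3, spans 59.0 kb with mixed classes.

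Records on the opposite strand of a gene were scattered. The 90 records faced 81 genes, of which 8 faced 2 or more and none more than 3. In 84 cases the gene was protein coding, and 1 record faced a ribosomal protein gene. Intergenic members lay a median of 28.3 kb from the nearest coding gene (quartiles 6.25 and 105.5 kb), and 41 of the 315 lay within 2 kb of one. The nearest coding gene was on the same strand for 132 of them.

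The position of members bears on how fragments are assigned. With the gene body and 2 kb upstream as the window of a protein coding gene, the default used by Signac for gene activity, 455 of 803 members (56.7%) lay wholly inside some coding window. These were all 336 coding-intron records, 84 opposite a gene, 18 intergenic records, 12 that overlapped exons and 5 in lncRNA introns. Under that setting a fragment over such a member is counted for the coding gene.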

How the data were processed

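The deposited file is the gene annotation of the cattle reference. Per the file header its build is ARS-UCD1.2; per the series text, reads were aligned to a cattle reference made with Cell Ranger ATAC, and Signac 1.2.1 was used. Its values are the authors' first and last base of each feature. No aligner version was found in the labels. Names are the first gene name of each record; small RNA genes of other kinds were not counted as hosts.

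A member counted as intronic when it lay wholly in an intron of a same-strand gene and met no exon of that gene. Other classes followed in the order exon overlap, opposite strand, intergenic. Distances use the host transcript with the shortest intron around the member. Overlapping same-strand records were merged where loci are given. Analysis used Python 3.11.15, pandas 2.3.3 and numpy 2.4.6. On 1000 simulated members the class was recovered for 1000, and the distance for 400 of 400 intronic ones.

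Members, role lists and comparisons were chosen with earlier results of these data known. The rule named hosts with 4 or more members, the 5 richest ribosomal protein hosts, the shortest, longest, nearest and farthest member of each family, the 10 commonest names and the 5 richest chromosomes. Names outside it (lncRNA hosts, runs, chromosomal intervals, exon overlaps, RPSA, role-list hosts' details, ATP5F1B, CEP295) were chosen after their values were seen. Some hosts that the rule names are not reported here. Sequences were not analysed here. How the alternatives moved the values is given at the end.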

Additional observations from a re-analysis of the deposited data

How the results depend on the processing

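The share of members in coding introns (41.8%) ranged from 41.3% to 43.1% when exons were ignored, members within 20 bases of an exon, scaRNA records, scaffolds or runs were left out, or overlaps were merged. It was 34.1% over named records and 59.6% with 1 record per gene name. The ribosomal protein share of hosts (10.97%) was 16.7% over hosts of named records, 11.4% with RPSA added (chosen after seeing the data, as were merging for all but the first value and leaving out runs), and 15.2% counted over members instead of hosts. The median length of 126 bases was 128 bases over named records, 128 over coding-intron records and 84 with 1 record per name. The median distance to the next exon (718.5 bases) was 112 bases in ribosomal protein hosts, 1029 in the others and 179 with 1 record per name. It was 754 bases with the longest intron and 695.5 with overlaps merged. These subsets hold different members; the cause was not tested. No paired analysis was possible because the annotation belongs to no sample. The values depend on annotated gene ends and exons, and 580 records carry no name.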

Other observations

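A record named bta-mir-677, which is a microRNA name, was typed as snoRNA. It had 71 bases (chromosome 5, 56791576 to 56791646) and lay in intron 4 of ATP5F1B, an ATP synthase subunit gene, 86 bases after the previous exon and 88 bases before the next. The intron was 245 bases long. The record was chosen after its values were seen.

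Overlapping records were counted separately by the annotation. Merging same-strand overlaps reduced 803 records to 776 loci, since 54 records shared 27 loci. In coding introns 20 records did so. Hosts with 4 or more members numbered 14 by records and 13 by loci.

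The 2 members of CEP295 lay together in its intron 15, of 478 bases. Their distances to the next exon were 87 and 315 bases. CEP295 stands beside the run of 8 members that follows TAF1D, on the other strand. Among members in lncRNA introns, 18 of 40 (45.0%) were in the first intron, against 53 of 336 (15.8%) in coding hosts. These shares were not adjusted for the number of introns, and a host with few introns has a higher share by number alone. The lncRNA host transcript of a SNORA63 record had 1 intron, for example, and that of the coding host HECTD4 had 72. A preference for first introns was not tested.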
